A study of Mus musculus with 6 samples.

Results

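Of the 13 protein-coding genes of the mouse mitochondrial genome, 7 are described here: mt-Nd1, mt-Nd2, mt-Nd4, mt-Nd5 and mt-Nd6 of complex I, mt-Cytb of complex III and mt-Co1 of complex IV. They were chosen from the 32285 genes of the count table by gene identity and by more than 200 counts in every library, a rule that used their levels. RNA was measured in germline stem (GS) cells, a culture of mouse spermatogonial stem cells, of the wild-type line DBA-GFP. Libraries came from cells in medium with 8 mM pyruvate (3 libraries) and from cells in complete medium, the control (3 libraries). All 6 libraries share 1 line and genotype. The labels give neither the composition of the media nor the time in them. They do not say whether the libraries came from separate cultures either, so each p-value is set against a spread that may be technical.

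The mitochondrial genome is a small double-stranded circle whose 2 strands, called heavy and light, are each copied into long transcripts that are cut into single RNAs, mostly at the tRNAs that lie between the messages. Of the protein-coding genes only mt-Nd6 is read from the opposite template to the others, and in human cells its message lacks the stable poly(A) tail that the other messages carry. The proteins form the membrane core of the respiratory chain: complex I takes electrons from NADH, complex III hands them to cytochrome c, and complex IV passes them to oxygen. Pyruvate is oxidised in the mitochondrial matrix and delivers NADH to complex I. All protein factors that copy the genome, process its RNA and translate it are made from nuclear genes, as are the remaining subunits.

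On GRCm38 the 7 genes lie on the mitochondrial chromosome in the order mt-Nd1 (ENSMUSG00000064341, bases 2751 to 3707), mt-Nd2 (ENSMUSG00000064345, 3914 to 4951), mt-Co1 (ENSMUSG00000064351, 5328 to 6872) and mt-Nd4 (ENSMUSG00000064363, 10167 to 11544). Then follow mt-Nd5 (ENSMUSG00000064367, 11742 to 13565), mt-Nd6 (ENSMUSG00000064368, 13552 to 14070 on the minus strand) and mt-Cytb (ENSMUSG00000064370, 14145 to 15288). Each is a single exon.

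The genes that passed the count minimum and those that did not were far apart. The member with the fewest counts, mt-Nd6, had 287, 399 and 309 counts in the pyruvate libraries and 321, 404 and 375 in the control libraries. The other 6 protein-coding genes were mt-Co2, mt-Co3 and mt-Atp6, each with at most 7 counts in any library, mt-Atp8 with 0 to 2, mt-Nd3 with 0 to 1 and mt-Nd4l with 0. The 22 tRNA genes and 2 ribosomal RNA genes of the mitochondrial genome are not rows of the table (0 of each). The 6 genes near 0 gave between 4 and 12 counts in all per pyruvate library and between 8 and 13 per control library, while the 7 members gave 338273 to 519299 per pyruvate library and 396136 to 609299 per control library.

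Pieces of the mitochondrial genome also stand in nuclear chromosomes as pseudogenes, and a read that fits both places cannot be given to 1 of them. Each gene was therefore cut into all its windows of 75 bases, and the share of windows found letter for letter in another annotated transcript was counted (GENCODE M21 on GRCm38). That share was 99.5% for mt-Co2, 99.5% for mt-Atp6, 99.9% for mt-Co3, 97.8% for mt-Nd3 and 98.7% for mt-Nd4l, all among the genes near 0. Among the members it was 61.5% for mt-Nd4, 39.8% for mt-Co1, 5.71% for mt-Nd2 and 1.66% for mt-Nd5, and 0% for mt-Nd1, mt-Nd6 and mt-Cytb. The exception was mt-Atp8, which had 0% and also at most 2 counts. Its last 43 bases are also the first bases of mt-Atp6, where the copy Gm10925 has 0 differences. That stretch is too short to fill a window of 75 bases, so the 0% does not show that mt-Atp8 is free of copies. The labels do not say how reads with several positions were counted, and the part of these copies in the counts was not tested.

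**Figure D1:**
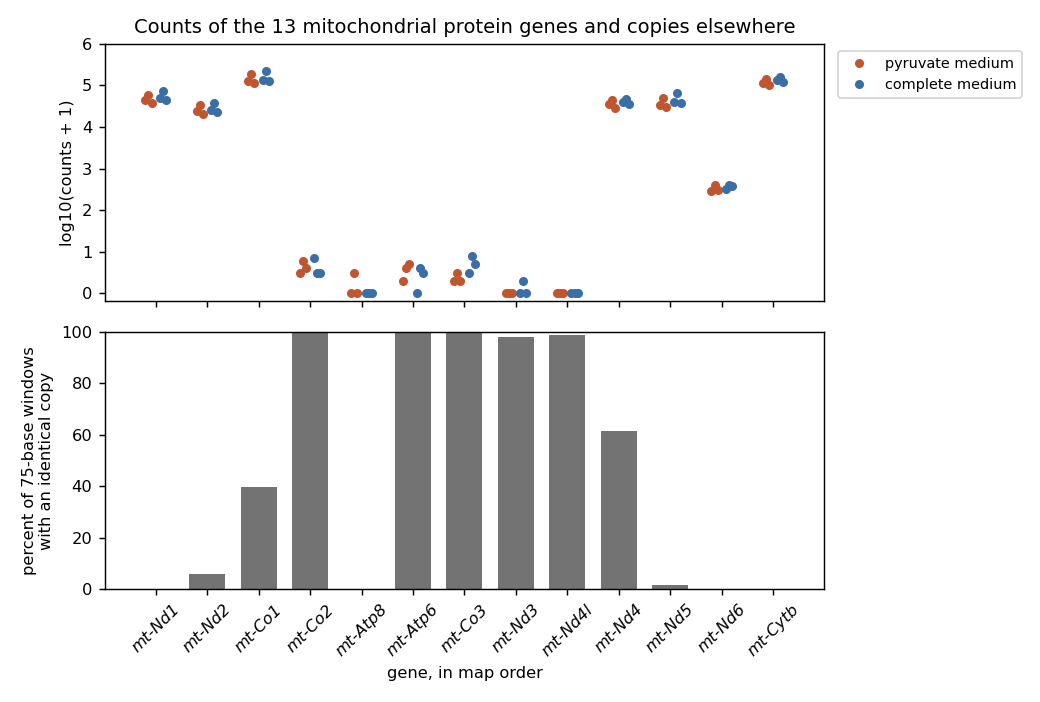
The upper panel plots log10 of counts plus 1 in each of the 3 pyruvate and 3 complete-medium (control) libraries for the 13 protein-coding genes in map order, and the lower panel the percent of 75-base windows with an identical copy in another annotated transcript. The 7 members lie at 287 counts or more in every library. Of the 6 genes at 7 counts or fewer, 5 have copies over at least 97.8% of their windows, while mt-Atp8 has no whole window with a copy.

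Copies of 7 of the 13 genes stood in a single run of 7 unprocessed pseudogenes on the minus strand of chromosome 1, from base 24611535 to 24616197, a stretch of 4663 bases that starts inside mt-Co1 and ends inside mt-Nd4. Over 4149 aligned bases it differed from the mitochondrial genes at 7 positions, and none of the 7 pseudogenes is a row of the count table (0). The run begins in the last part of mt-Co1, where Gm29216 aligns with bases 1054 to 1545. The first bases of that stretch are shown because they hold all 6 of its differences, printed in capitals (mt-Co1 at chrM:6381-6440 on the plus strand; Gm29216 at chr1:24616138-24616197 on the minus strand).
mt-Co1: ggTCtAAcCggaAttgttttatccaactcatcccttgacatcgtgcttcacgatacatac
Gm29216: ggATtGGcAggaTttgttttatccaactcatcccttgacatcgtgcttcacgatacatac
Counted from 1 at the first base of mt-Co1 and with the mitochondrial base first, these are T1056A, C1057T, A1059G, A1060G, C1062A and A1066T. From there to the end of the gene the letters were identical. A second copy of mt-Co1, Gm13340 on chromosome 2, covers the whole gene but differs at 37 of 1545 bases.

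The other end of the run lies in mt-Nd4, whose bases 1 to 876 of 1378 match Gm28439 with 0 differences. The place where the match stops is shown, with the shared bases in capitals (mt-Nd4 at chrM:11003-11072 on the plus strand; Gm28439 at chr1:24611535-24611574 on the minus strand).
mt-Nd4: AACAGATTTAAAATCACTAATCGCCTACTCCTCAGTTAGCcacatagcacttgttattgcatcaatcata
Gm28439: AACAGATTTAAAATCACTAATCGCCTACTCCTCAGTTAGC
Between these ends stand copies of 5 of the genes near 0, mt-Co2, mt-Atp6, mt-Co3, mt-Nd3 and mt-Nd4l. The start of mt-Nd3 and of its copy Gm28438 is shown because it holds the only difference over 345 aligned bases, T3C, printed in capitals (chrM:9459-9518 on the plus strand; chr1:24613060-24613119 on the minus strand).
mt-Nd3: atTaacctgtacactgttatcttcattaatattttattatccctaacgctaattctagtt
Gm28438: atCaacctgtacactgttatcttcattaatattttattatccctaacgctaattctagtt
No pseudogene is listed as a copy of mt-Atp8, apart from the end that it shares with mt-Atp6. Bases 1 to 681 of mt-Co2 align with its copy, and 233 bases lie between that part and the start of mt-Atp6. Between the copies of both on chromosome 1 there are also 233 bases. The letters of that nuclear interval were not examined.

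The member read from the light-strand side meets a neighbour on the other strand. The ends of mt-Nd5 and mt-Nd6 share 14 bases in opposite directions, shown in capitals at the end of each gene (mt-Nd5 at chrM:13506-13565 on the plus strand; mt-Nd6 at chrM:13552-13611 on the minus strand, written 5′ to 3′ along each gene).
mt-Nd5: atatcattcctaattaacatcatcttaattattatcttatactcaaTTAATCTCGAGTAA
mt-Nd6: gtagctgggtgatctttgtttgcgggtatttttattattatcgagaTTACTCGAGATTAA
The library kit keeps the strand, but the strand setting of the counting is not given. If strand was not used, reads from these 14 bases could be counted for either gene. On the same strand, mt-Nd4l and mt-Nd4 share 7 bases, and mt-Nd1 and mt-Nd2 each share 2 bases with a tRNA gene.

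Library totals ran from 21830090 to 25562768 counts in pyruvate medium and from 20918312 to 26413080 in complete medium, so that 3 counts, taken as the floor of detection, corresponded to 0.114 to 0.143 CPM, counts scaled to a common total for every library. Control replicate 2 stood apart, at 36.5 on a first principal component with 38.9% of the variance, with pyruvate replicate 1 at the other end at -27.2. Germ cell markers (18 of 18 in the table) summed to 4742 to 5033 CPM in pyruvate and 4741 to 5219 CPM in control libraries, led by Dazl. Fibroblast markers summed to 658 to 698 CPM in pyruvate and 604 to 654 CPM in control libraries, mostly from Fn1 and Col5a1, with Dcn and Lum at means of 0.388 and 0.228 CPM. Sertoli and Leydig markers summed to 28.04 to 33.0 CPM in pyruvate and 28.7 to 32.4 CPM in control libraries. Most of this came from Wt1 and Sox9, at means of 15.5 and 10.1 CPM, with Fshr, Hsd3b1 and Insl3 at 0. Endothelial and immune markers summed to 27.6 to 33.9 CPM in pyruvate and 28.6 to 33.25 CPM in control libraries. Most of this came from Kdr, Pecam1 and Cd68, at means of 12.2, 10.95 and 5.70 CPM, with Adgre1 at 0. The part of these other cell types in the results was not tested.

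The study set pyruvate medium against complete medium to profile how expression depends on the culture medium. The 7 mitochondrial transcripts were all lower on average in pyruvate medium, by 15.4% for mt-Nd2 to 23.6% for mt-Nd5, but none passed the test across all genes. The fitted log2 fold changes ran from -0.39 to -0.24 with a median of -0.26, beside a median of -0.00995 over the 14912 genes tested. All 7 lay below 0, as did 51.9% of all genes. Of the members, 0 passed edgeR's quasi-likelihood test after Benjamini-Hochberg adjustment (adjusted p = 0.222 to 0.530), against 0.0536% of all genes in either direction and 0.0335% lower in pyruvate medium. At an unadjusted p under 0.05 stood 3 of the 7, mt-Cytb, mt-Nd4 and mt-Nd1, all lower in pyruvate medium, where 6.44% of all genes were lower at that level. That count rested on single libraries: leaving out pyruvate replicate 2 made it 6, and leaving out pyruvate replicate 1 or pyruvate replicate 3 made it 0. In such bulk samples, fewer cells of a type and less RNA per cell cannot be told apart.

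Among the complex I genes, mt-Nd1, a subunit near the ubiquinone-binding site, had 1828, 2336 and 1756 CPM after TMM scaling in pyruvate medium against 2356, 2860 and 2176 CPM in complete medium. Pyruvate replicate 2 lay above control replicate 3, so the groups overlapped. The log2 fold change was -0.32 (SE 0.137, 95% interval -0.634 to -0.0066; edgeR adjusted p = 0.338). For mt-Nd5, a subunit of the proton-pumping membrane arm, the values were 1363, 1906 and 1407 CPM in pyruvate medium and 1800, 2539 and 1782 CPM in complete medium. It had the most negative log2 fold change of the 7, -0.39 (SE 0.174, 95% interval -0.786 to 0.0097; edgeR adjusted p = 0.358), and the groups overlapped again through pyruvate replicate 2.

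The remaining heavy-strand genes of complex I encode further proton-pumping subunits. mt-Nd4 stood at 1462, 1729 and 1309 CPM in pyruvate medium against 1831, 1852 and 1714 CPM in complete medium. The single overlap was pyruvate replicate 2 just above control replicate 3. Its log2 fold change was -0.26 (SE 0.105, 95% interval -0.504 to -0.0214; edgeR adjusted p = 0.315). mt-Nd2 stood at 946, 1287 and 932 CPM in pyruvate medium against 1166, 1450 and 1123 CPM in complete medium. Here pyruvate replicate 2 lay above both control replicates 1 and 3, and the log2 fold change was -0.24 (SE 0.147, 95% interval -0.578 to 0.0965; edgeR adjusted p = 0.496).

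The complex III and IV genes were the most abundant members. mt-Cytb, the only mitochondrial-encoded subunit of complex III, had 4680, 5686 and 4607 CPM in pyruvate medium against 6100, 6453 and 5943 CPM in complete medium. It was the only 1 of the 7 whose groups did not overlap, with every pyruvate library below every control library; 10.6% of all genes were so separated downward. Its log2 fold change was -0.30 (SE 0.0972, 95% interval -0.527 to -0.0824; edgeR adjusted p = 0.222). mt-Co1, the catalytic subunit of complex IV, had 5139, 7187 and 5353 CPM in pyruvate medium against 6234, 8761 and 6161 CPM in complete medium. Pyruvate replicate 2 lay above control replicates 1 and 3, and the log2 fold change was -0.26 (SE 0.173, 95% interval -0.655 to 0.137; edgeR adjusted p = 0.530).

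mt-Nd6, the light-strand member and a complex I subunit, had 11.4, 15.5 and 14.05 CPM in pyruvate medium against 14.8, 15.9 and 17.9 CPM in complete medium. Its log2 fold change was -0.24 (SE 0.137, 95% interval -0.559 to 0.0702; edgeR adjusted p = 0.460), and pyruvate replicate 2 lay above control replicate 1. Its log2 fold change equalled that of mt-Nd2 to 2 decimals, at a far lower CPM. A p that misses the threshold does not show that levels were alike: the 7 intervals reach down to between -0.786 and -0.504 on the log2 scale.

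**Figure D2:**
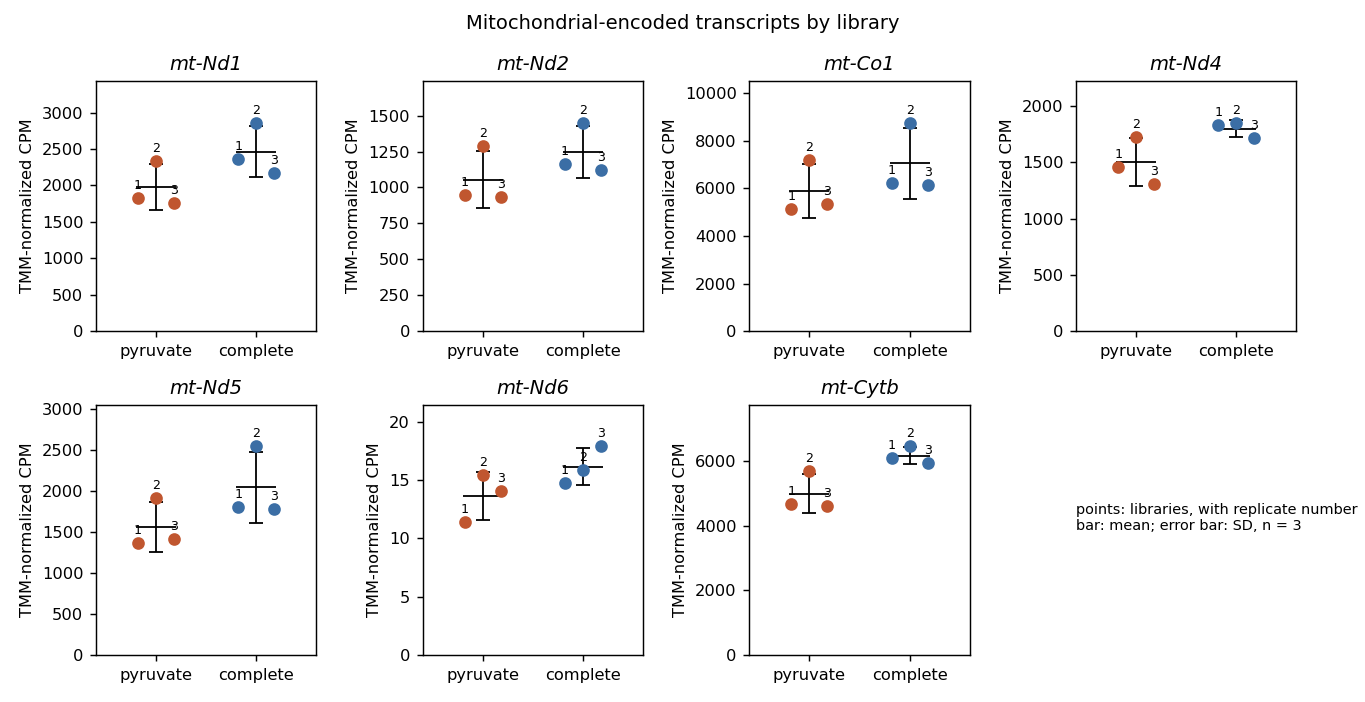
TMM-normalized CPM of each of the 7 genes in each library, with replicate numbers, pyruvate medium on the left and complete medium (control) on the right of each panel; the bar is the mean and the error bar the SD of 3 libraries. In mt-Cytb the pyruvate libraries (4607 to 5686 CPM) all lie below the control libraries (5943 to 6453 CPM), and in the other panels the groups overlap.

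Averaged over the 7 genes, log2 CPM deviated from the mean of the 6 libraries by -0.28, 0.11 and -0.26 in pyruvate replicates 1, 2 and 3 and by 0.064, 0.32 and 0.056 in control replicates 1, 2 and 3. The range of these means was 0.39 over the pyruvate and 0.26 over the control libraries, beside a median log2 fold change of -0.26 between media. Of the 7 genes, 6 were highest in control replicate 2, where 31.2% of all genes were highest, and mt-Nd6 was highest in control replicate 3. The lowest value lay in pyruvate replicate 3 for mt-Nd1, mt-Nd2, mt-Nd4 and mt-Cytb (4 of 7, against 9.7% of all genes) and in pyruvate replicate 1 for the other 3.

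**Figure D3:**
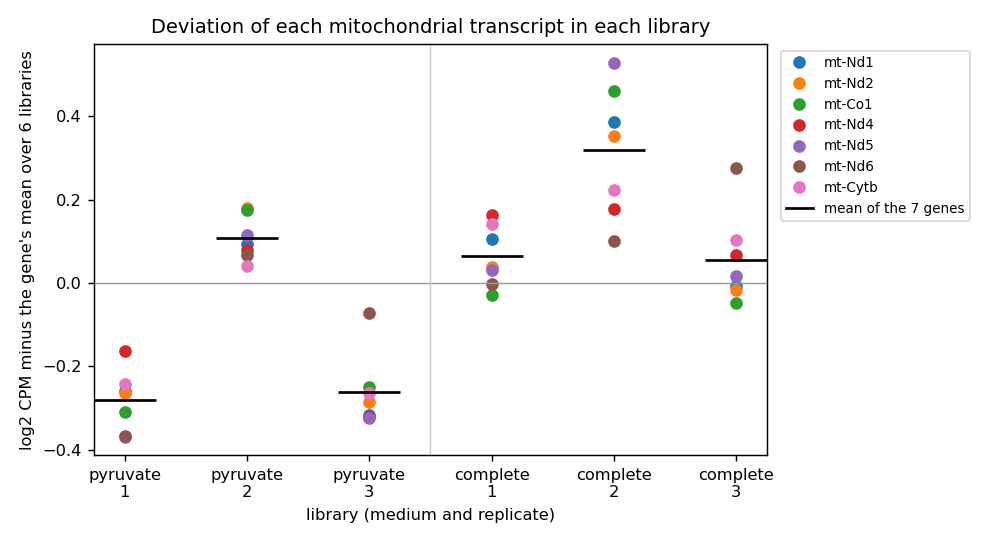
Deviation of log2 CPM from each gene's own mean over the 6 libraries, by library, pyruvate medium left and complete medium (control) right; each point is 1 gene and the black line the mean of the 7. The means lie at -0.28 and -0.26 in pyruvate replicates 1 and 3, at 0.11 in pyruvate replicate 2 and at 0.32 in control replicate 2.

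Control replicate 2 was also the library that stood apart over all genes. Over the mean of the other control libraries it was 1.42-fold for mt-Nd5, 1.41-fold for mt-Co1, 1.27-fold for mt-Nd2 and 1.26-fold for mt-Nd1. For mt-Cytb, mt-Nd4 and mt-Nd6 it was 1.07-fold, 1.04-fold and 0.971-fold. Without it the log2 fold changes were still below 0 in all 7 (47.6% of all genes), at -0.27 for mt-Cytb, the only member still without overlap (20.1% of all genes were then so separated downward), -0.26 for mt-Nd6, -0.24 for mt-Nd4, -0.20 for mt-Nd1, -0.20 for mt-Nd5, -0.12 for mt-Nd2 and -0.073 for mt-Co1. Of the members, 0 passed edgeR's adjusted threshold in that fit (adjusted p = 0.115 to 0.779), while 4.16% of all genes did, 1.82% lower in pyruvate medium. The values of mt-Co1, mt-Nd5, mt-Nd2 and mt-Nd1 thus moved by over 1.5 times with this 1 library, and those of mt-Cytb, mt-Nd4 and mt-Nd6 by less. Other libraries moved those as well: mt-Nd4 stood at -0.17 without pyruvate replicate 3, and mt-Nd6 at -0.13 without pyruvate replicate 1 and at -0.16 without control replicate 3. Without pyruvate replicate 2 all 7 were more negative, from -0.56 for mt-Nd5 to -0.35 for mt-Nd6. The members have a GC content of 34.1% to 39.9%, and with each library's trend of counts with GC content and length removed, their log2 fold changes ran from -0.21 for mt-Nd5 to -0.044 for mt-Nd2, with a median of -0.13. In that fit 0 members and 3.95% of all genes passed edgeR's adjusted threshold, 2.37% lower. DESeq2 called 0 members as well (adjusted p = 0.154 to 0.570), beside 2.13% of all genes, 0.905% lower.

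**Figure D4:**
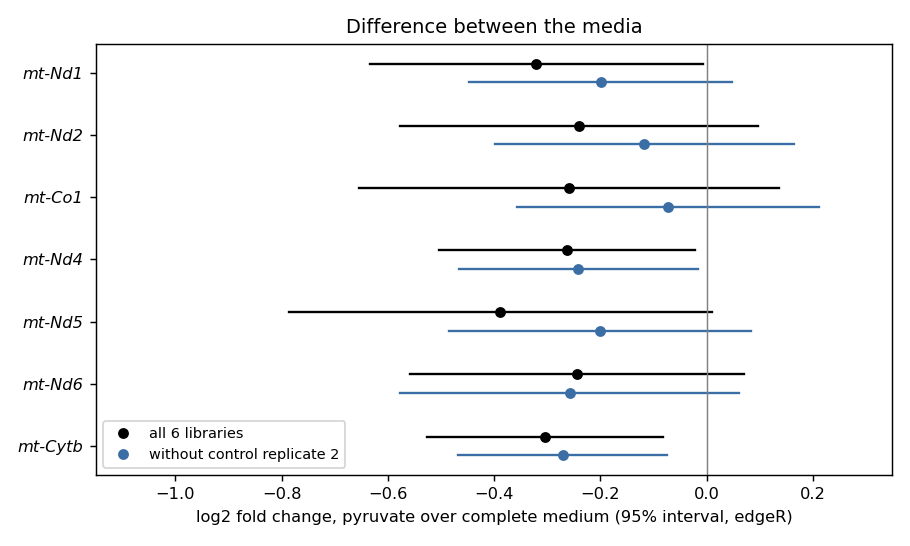
Log2 fold change of pyruvate over complete medium (control) for each gene with its 95% interval from edgeR, with all 6 libraries in black and without control replicate 2 in blue. All points lie left of 0, between -0.39 and -0.24 with all libraries and between -0.27 and -0.073 without that library, and most intervals cross 0.

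As a share of all counts in a library, the 7 genes took 1.56%, 2.03% and 1.55% in pyruvate medium against 1.95%, 2.31% and 1.89% in complete medium. The Wilson 95% interval of each share reached at most 0.00584 percentage points to either side, counting error only, so the spread between libraries was far wider than the counting error. The means were 1.72% ± 0.274 in pyruvate medium and 2.05% ± 0.223 in complete medium (SD, n = 3 each). They differed by -0.336 percentage points, with overlapping groups and p = 0.3 in a two-sided exact permutation test over the 6 libraries, whose smallest possible p is 0.1. Without control replicate 2 the difference was -0.208 percentage points, also with overlapping groups (exact permutation p = 0.6, two-sided, n = 3 and 2).

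Ratios within a library need no scaling between libraries. Per 1000 counts of the 6 heavy-strand members, mt-Nd6 had 0.742, 0.769 and 0.914 counts in pyruvate medium and 0.757, 0.663 and 0.948 in complete medium. How well the mRNA kit captured the mt-Nd6 message was not tested, so the size of these values may not be that of the transcript ratio. The groups overlapped, and the log2 ratio differed by 0.044 (exact permutation p = 0.9, two-sided, n = 3 each); without control replicate 2 it differed by -0.074. The highest values lay in replicate 3 of each medium. The Wilson 95% interval of the share of mt-Nd6 among the members' counts ran from 0.0817% to 0.102% in pyruvate replicate 3. It ran from 0.0856% to 0.105% in control replicate 3 and from 0.0601% to 0.0731% in control replicate 2. The count ratio of mt-Co1 to mt-Cytb was 1.10, 1.26 and 1.16 in pyruvate medium and 1.02, 1.36 and 1.04 in complete medium (log2 difference 0.055, exact permutation p = 0.7, two-sided, n = 3 each). This ratio was highest in replicate 2 of each medium.

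Most of the members' counts came from mt-Co1 and mt-Cytb. Of the counts of the 7 genes, mt-Co1 held 33.3%, 35.7% and 34.8% in pyruvate medium and 32.0%, 36.6% and 32.6% in complete medium. mt-Cytb held 30.3%, 28.2% and 29.96% in pyruvate medium and 31.3%, 26.96% and 31.4% in complete medium. In replicate 2 of each medium mt-Co1 held its highest and mt-Cytb its lowest share. Means in pyruvate and complete medium were 11.6% and 11.8% for mt-Nd1, 9.15% and 9.75% for mt-Nd5, 8.85% and 8.73% for mt-Nd4 and 0.0808% and 0.0789% for mt-Nd6. mt-Nd2 was the only gene whose shares did not overlap, with 6.13%, 6.39% and 6.06% in pyruvate medium and 5.98%, 6.06% and 5.94% in complete medium, by a margin smaller than the last printed digit. Its exact permutation p was 0.1, the smallest possible, and 0.7 after Benjamini-Hochberg adjustment over the 7 genes; the other 6 had exact permutation p of 0.3 to 0.9, adjusted 0.7 to 0.9.

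**Figure D5:**
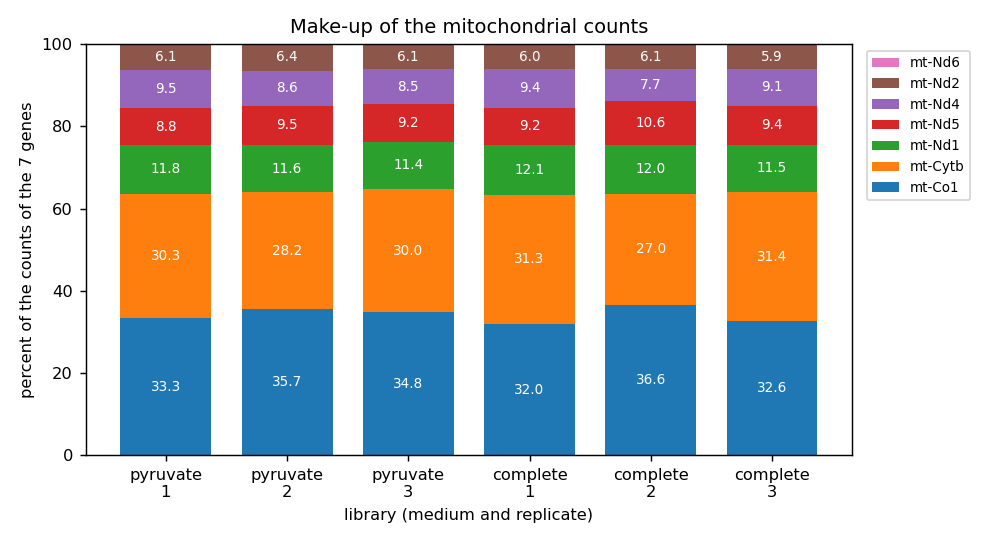
Percent of the summed counts of the 7 genes held by each gene in each library, pyruvate medium left and complete medium (control) right; each stacked bar sums to 100. mt-Co1 holds 32.0% to 36.6% and mt-Cytb 26.96% to 31.4%, and mt-Nd6, at most 0.0947%, is too thin to be seen.

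Levels of different genes were compared per length, as CPM on library totals per kilobase of gene length. mt-Cytb was highest, at 4406 ± 527 in pyruvate and 5326 ± 119 in complete medium (SD, n = 3 each), followed by mt-Co1 at 3852 ± 729 in pyruvate and 4500 ± 837 in complete medium. Over the 6 libraries both ranges overlapped, from 4058 to 5437 for mt-Cytb and from 3373 to 5466 for mt-Co1. mt-Nd1 came next at 1849 to 2881, apart from both neighbours in the order. mt-Nd4 (957 to 1331), mt-Nd2 (905 to 1347) and mt-Nd5 (758 to 1342) followed with overlapping ranges. mt-Nd6 was lowest at 22.3 to 34.5, and the mean of mt-Cytb was 169.6-fold that of mt-Nd6. The libraries were made with an mRNA kit, and in human cells the mt-Nd6 message lacks the stable poly(A) tail of the others. The gap is therefore a gap in counts, and the part of RNA capture in it was not tested.

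The order was the same in 5 of 6 libraries; in control replicate 2 mt-Co1 came first and mt-Nd4 came after mt-Nd2 and mt-Nd5. It also depended on the length used. A length without copies applies only if reads with several positions were left out of the counts, and their treatment was not given. When each length was reduced to the share of 75-base windows without a copy, the mean level of mt-Co1 over 6 libraries was 6941 in place of 4176 and that of mt-Nd4 3104 in place of 1195, on the same scale. mt-Co1 then came first, mt-Cytb next at 4866 and then mt-Nd4, before mt-Nd1 at 2312. Of these 4 genes mt-Cytb and mt-Nd1 have no copy among the annotated transcripts, so their levels were the same on both lengths.

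Nuclear genes that make and use these transcripts were compared in the same fit. Over 10 lists, 230 distinct genes were tested and 0 passed edgeR's adjusted threshold in either direction. Of all genes only 0.0536% passed, so a count of 0 tells little about these lists. Over all genes 51.9% lay below 0, with a median of -0.00995. The list for copying and transcribing the mitochondrial genome had 13 of 23 tested genes above 0 and a median log2 fold change of 0.030. RNA processing, modification and decay had 16 of 36 above 0 (median -0.048), and translation factors 9 of 19 (median -0.029). Enzymes of mitochondrial nucleotide supply had 6 of 17 above 0 (median -0.043), biogenesis regulators 3 of 13 (median -0.10) and mitophagy and membrane dynamics 13 of 22 (median 0.025). Without control replicate 2 the median of the biogenesis regulators was 0.031, on the other side of 0. The medians of the other lists named in this paragraph kept their sign.

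Nuclear genes for the partners of the 7 proteins had medians near 0, beside -0.00995 over all genes, of which 51.9% lay below 0. Nuclear complex I subunits had 20 of 36 above 0 with a median log2 fold change of 0.020, complex III 3 of 9 with -0.026, complex IV 10 of 15 with 0.035, and assembly factors of these complexes 19 of 40 with -0.012. In control replicate 2, where 6 of the 7 mitochondrial genes were highest, the summed nuclear subunits of each complex were at their lowest. These sums are CPM on library totals, without the TMM scaling used for single genes. Single subunits varied. After TMM scaling Ndufa12 was lowest there at 32.0 CPM, while Uqcrc2, at 129.6 CPM, lay above every pyruvate library (118.0 to 122.9 CPM). Complex I subunits summed to 3020 to 3318 CPM in pyruvate and 2449 to 3282 CPM in control libraries, and complex III subunits to 1146 to 1263 CPM in pyruvate and 1007 to 1329 CPM in control libraries. Complex IV subunits summed to 1915 to 2149 CPM in pyruvate and 1561 to 2174 CPM in control libraries. Each control minimum was that of replicate 2, and the part of this library in these sums was not tested beyond leaving it out. Without this library the medians were -0.072, -0.15 and -0.097, all below 0, and 3 of the 230 listed genes passed edgeR's threshold, which 4.16% of all genes passed: Ndufa12, a complex I subunit (-0.43, adjusted p = 0.0189), Cox5a, a complex IV subunit named after its values were seen (-0.25, adjusted p = 0.0452), and Bnip3, a mitophagy receptor (0.50, adjusted p = 0.0369).

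Single nuclear genes of lowest p are given by role. Mterf3, which represses mitochondrial transcription in the mouse, had 26.1, 31.5 and 31.2 CPM in pyruvate against 35.4, 40.1 and 34.1 CPM in complete medium (log2 -0.30, edgeR adjusted p = 0.269). Fastkd1, of a family of mitochondrial RNA-binding proteins, had 34.3, 39.6 and 34.8 CPM in pyruvate against 43.4, 51.96 and 43.2 CPM in complete medium (log2 -0.35, edgeR adjusted p = 0.214). In both the groups did not overlap, as in 10.6% of all genes in that direction. Metap1d, which removes the first methionine of mitochondrial proteins, averaged 21.4 ± 0.41 CPM in pyruvate and 16.8 ± 1.17 CPM in complete medium (SD, n = 3 each; log2 0.35, edgeR adjusted p = 0.175).

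Among subunits, Uqcrc2, a core protein of complex III, averaged 120.4 ± 2.44 CPM in pyruvate and 136 ± 6.0 CPM in complete medium (log2 -0.18, edgeR adjusted p = 0.317). Cox7a2l, a factor in joining complexes III and IV, had 79.4, 65.5 and 61.3 CPM in pyruvate against 59.9, 45.6 and 60.3 CPM in complete medium (log2 0.32, edgeR adjusted p = 0.351). The other genes named by this rule for the subunit and assembly lists, Ndufb6, Ndufa12, Uqcrfs1, Cox6b2, Cox16 and Ndufaf7, had log2 fold changes from -0.28 to 0.44 and adjusted p from 0.277 to 0.484. Those of the remaining lists that lay lower in pyruvate medium were Ddx28, Mtrf1, Ak3, Suclg2 and Gabpb1, at -0.46 to -0.17, and Top3a lay at 0.15.

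The 3 listed genes of lowest p, Esrrb, Bnip3 and Metap1d, lay higher in pyruvate medium, without passing the adjusted threshold. Esrrb is a nuclear receptor from the list of biogenesis regulators. It had 9.80, 9.97 and 8.91 CPM in pyruvate against 6.99, 6.32 and 6.49 CPM in complete medium (log2 0.54, edgeR adjusted p = 0.128). Bnip3 had 15.5, 14.6 and 14.5 CPM in pyruvate against 11.1, 11.2 and 9.89 CPM in complete medium (log2 0.47, edgeR adjusted p = 0.134). Pink1, a kinase that marks damaged mitochondria, had 18.1, 14.9 and 15.4 CPM in pyruvate against 11.7, 9.70 and 12.9 CPM in complete medium (log2 0.50, edgeR adjusted p = 0.182). In Esrrb, Bnip3 and Pink1 every pyruvate library lay above every control library, as in 11.9% of all genes. By DESeq2 Esrrb and Bnip3 passed the adjusted threshold (adjusted p = 0.0385 and 0.0379), as did 2.13% of all genes.

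By the pattern over the 6 libraries, the genes nearest to the members' mean were searched among 10410 tested genes of at least 5 CPM, by the root mean square difference of centred log2 CPM. The nearest were Usp14 (0.0462), Cfl2 (0.0508), Ppp6c (0.0549), Zdhhc20 (0.0554), Ap3s1 (0.0578), Xlr4b (0.0578), Gtf2a2 (0.0604) and Atp6ap2 (0.0606). Usp14, a deubiquitinase of the proteasome, had 111, 144 and 122 CPM in pyruvate medium and 138, 172 and 142 in complete medium, with control replicate 2 highest and pyruvate replicate 1 lowest. The members' own differences from their mean ran from 0.0470 for mt-Nd2 and 0.0486 for mt-Nd1 to 0.0982 for mt-Nd5 and 0.155 for mt-Nd6. All 8 genes were nearer to the mean than 5 of the 7 members that make it up. The 8 were picked for nearness out of 10410 genes and the members were not, so this says nothing about how alike the members are.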

How the data were processed

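For all 6 libraries the values are raw counts for each gene as deposited by the authors, from a stranded mRNA kit per the labels' protocols. Per the submitters' processing notes, the tools were HTSeq 2.0.5, STAR 2.7.11a, cutadapt 4.6 and bcl2fastq 2.20, with the build mm10. The strand setting and the treatment of reads with several positions were not given in the sources used here. The table's 3 other columns were not used, and 0 lines lacked a gene name. Symbols, positions and sequences came from GENCODE M21 on GRCm38, which named 32235 of 32285 genes.

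The fit was made with edgeR 4.0.16 in R 4.3.3: filterByExpr at a minimum count of 10, TMM scaling, the robust quasi-likelihood test with no covariate and Benjamini-Hochberg adjustment at 0.05 over 14912 genes. Standard errors are the log2 fold change over the square root of F. Alternatives used limma 3.58.1, DESeq2 1.42.0, other scalings and filters, and leaving out each library. Listed nuclear genes were named where past the threshold, else as the 2 of lowest p per list. Copies were searched among annotated transcripts, since no genome sequence was used here. Single values were tested by exact permutation (SciPy 1.17.1). The fit was tested on simulated counts. A first limit on recovery was not met there and was replaced, since changed genes below 5 CPM were recovered less often. Members and lists were chosen with earlier results of these data known. Within-group library pairs differed by more than sampling noise (chi-square per gene 3.11 to 46.96), so no pair was taken for a repeat deposit of 1 library. Floors and Wilson intervals cover counting error only. The edgeR intervals of log2 fold changes also take in the spread between libraries.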

Additional observations from a re-analysis of the deposited data

How the results depend on the processing

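With all libraries and the first settings 8 genes passed the threshold, 3 higher and 5 lower in pyruvate medium. Library totals as scaling gave 14 (8 higher), no filter 83, DESeq2 317, the GC and length correction 589, and leaving out each library 0 to 625, with 625 without control replicate 2 and at most 3 without any other library. The 0 came without pyruvate replicate 2 and without pyruvate replicate 3, where edgeR gave 1605 and 1661 genes at an unadjusted p under 0.05. Each member's log2 fold change was below 0 under all 15 alternatives across genes, and 0 members passed under 14 of them. With the replicate number as a block, 265 genes passed and 2 of the members: mt-Nd1 (-0.32, edgeR adjusted p = 0.0434) and mt-Nd5 (-0.39, edgeR adjusted p = 0.0288). The labels do not say what the number stands for, so the samples were not taken as paired. Deviations of same-numbered libraries correlated at 0.31, 0.31 and -0.073. Pyruvate replicates 1 and 2 correlated best with their same-numbered control, and pyruvate replicate 3 with control replicate 2 (0.151). The deviations were taken from each group's own mean, so these correlations depend on each other and cannot settle whether the libraries were paired. Of the nuclear listed genes, 2 passed with DESeq2, 3 with the GC and length correction and 0 to 3 on leaving out a library. On leaving out a library, the members' median ran from -0.41 to -0.20, against -0.13 with the GC and length correction, and the difference in library share from -0.494 to -0.208 percentage points. The log2 ratio of mt-Nd6 to the heavy-strand members ran from -0.074 (without control replicate 2) to 0.18 and was -0.048 without pyruvate replicate 3. Differences in make-up that changed sign were mt-Nd4 (-0.372 to 0.455 percentage points, -0.184 without pyruvate replicate 1), mt-Nd6 (-0.0044 to 0.0098, -0.0034 without pyruvate replicate 3) and mt-Cytb (-1.84 to 0.385; 0.259 without pyruvate replicate 2, 0.316 without control replicate 1). Windows of 50 bases gave shares with a copy of 8.19% for mt-Nd2, 51.1% for mt-Co1, 100% for mt-Co2 and 7.61% for mt-Nd5; windows of 100 bases gave 3.19% for mt-Nd2, 30.8% for mt-Co1 and 0% for mt-Nd5. Levels on the length without copies, an alternative chosen after seeing the data, were 6941 for mt-Co1 and 3104 for mt-Nd4. The 8 genes nearest to the members' pattern were the same 8 under the other 3 scalings, also chosen after seeing the data. The causes of these changes were not tested. With 3 libraries per group no exact permutation test could go below 0.1; depth limits mt-Nd6 most, at 287 to 404 counts.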
